A study of Mus musculus with 6 samples.

Results

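The resting transcriptome of C3H10T1/2 cells was described across all 20325 genes of the deposited table, from the 3 control samples of a series of 6. C3H10T1/2 is an established mouse line of embryonic mesenchymal cells, used as a model of a progenitor that can be steered towards skeletal and fat fates. The 3 controls were parental cells at passage 10 to 15 that had received a scrambled small interfering RNA, so they were transfected cells and not untouched ones. Nothing in their labels names a differentiation cue, and all 3 share DMEM with fetal bovine serum, Trizol extraction and TruSeq libraries. The other 3 samples, in which both Ring1a and Ring1b were knocked down, were not used. A treatment note attached to all of the samples speaks of cells with a mutant histone grown as tumours in mice, which conflicts with the parental genotype in the labels. The genotype label was followed, and the levels were not used to settle the conflict. The controls were chosen by their labels and not by any measured value. Replicates carry numbers in the labels, but separate cultures are not mentioned, so the SDs (n = 3) may be technical. The line is the only source of cells, so nothing here speaks for progenitors in a tissue.

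Mesenchymal progenitors give rise to cartilage, bone, fat, tendon and smooth muscle, and they build much of the connective tissue matrix around them. Each fate has its own switch genes, such as Sox9 for cartilage, Runx2 for bone and Pparg for fat, and its own late products, which appear when a cell matures. Signals of the FGF, PDGF, Wnt, Hedgehog, IGF and TGF-beta families steer the choice, so a progenitor's receptors and ligands are part of its description. Hox genes record position along the body axis and are kept silent by Polycomb proteins where they are not used.

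The deposited level of a gene is an estimated number of reads, scaled so that the libraries can be compared. Totals were 13400000, 13600000 and 13700000 in control replicates 1, 2 and 3. The value of 1 read, taken as the commonest of the low values, was 0.259, 2.51 and 0.903, which gives depths of about 51800000, 5400000 and 15100000 reads. A floor of 3 reads therefore lay at a level of 0.777, 7.52 and 2.71, covering counting error only, and a level of 10 stood for 38.6, 3.99 and 11.1 reads. Because longer transcripts give more reads, genes were ordered by level only after each level was divided by transcript length and scaled to 1000000 per library. That quantity, in parts of 1000000 (ppm), is called the length-scaled level below, and percentiles and ranks are of its mean over the 3 controls among 20070 genes with a length. Classes of level, counts of genes at a level of at least 10 and the promoter classes use the deposited level, with no correction for length.

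Of the 20325 genes, 11871 (58.4%) had a mean level of at least 10 and 4715 (23.2%) were listed at 0 in all 3 controls. The largest class, 6569 genes, lay between 100 and 1000, and 159 genes lay at 10000 or above. Those 159 genes held 25.2% of the summed level, and the 3066 genes between 1000 and 10000 held 52.8%. The 100 highest genes of each control held 27.6%, 28.9% and 29.5% of its length-scaled level (28.6% ± 0.96, SD, n = 3) and 20.3% ± 0.37 of the deposited level. On the mean length-scaled level, 466 genes made up 50% of the sum. The median coefficient of variation over the 3 controls was 16.4% for genes between 10 and 100, 5.58% between 100 and 1000, 3.47% between 1000 and 10000 and 4.35% at 10000 and above. Across the 11871 genes the controls correlated in pairs with Pearson's r of 0.990 to 0.993 on log2(level + 1), a correlation across genes, which are not independent replicates.

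**Figure D1:**
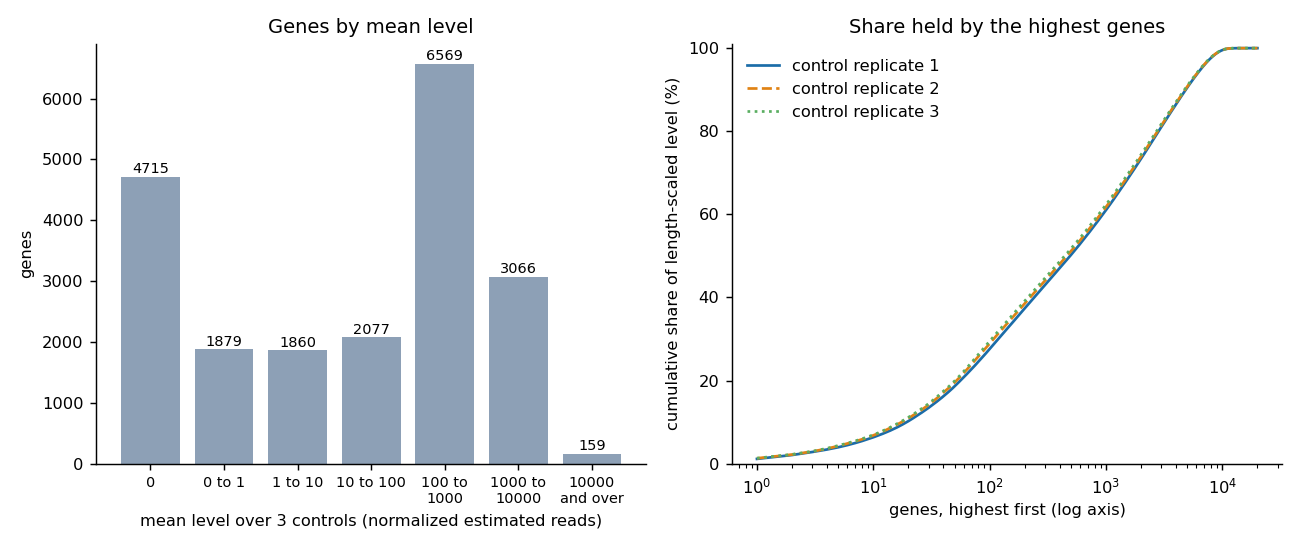
Genes by mean level over the 3 controls (left, bars are numbers of genes) and the cumulative share of the length-scaled level held by the highest genes in each control (right, log axis). The bars peak at 0 (4715 genes) and between 100 and 1000 (6569 genes), and the curves of the 3 controls lie close together, reaching 27.6% to 29.5% at 100 genes.

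Among the 100 highest genes by length-scaled level, 54 encoded ribosomal proteins and 3 had predicted or clone names. The first of the others was Eef1a1, the elongation factor that brings aminoacyl-tRNA to the ribosome, at 11362, 12863 and 13088 ppm (12438 ± 938). Vim, which encodes the mesenchymal intermediate filament vimentin, came next of all genes at 9280.4, 8907 and 9109.7 ppm (9099 ± 187). The ranges of these genes did not overlap, so their order held in each library. Actg1, a cytoplasmic actin, followed at 5369, 6863 and 6927 ppm, lower in control replicate 1 than in the other two. With the longest annotated transcript its mean was 4052.5 ppm, and levels of Nfix, Vcan, Myl6 and Rxra below also fell by over 1.5 times with that length. Its range overlapped that of Tpt1, a growth-related protein, which had 5923, 6457 and 6679 ppm. The ferritin light chain Ftl1 (5171 ± 126 ppm), the elongation factor Eef2 (4779 ± 144 ppm) and the matrix proteoglycan Bgn (4618 ± 152 ppm) came after them, the ranges of Eef2 and Bgn overlapping.

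Secreted and matrix genes stood among the 25 highest named genes beside this housekeeping set. They included Col1a2 and Col1a1, the chains of type I collagen, Sparc, which binds collagen, Fn1 (fibronectin), Fstl1, a secreted follistatin-like protein, and Cst3, an inhibitor of cysteine proteases. Ptn, a heparin-binding growth factor, reached 3630 ppm in control replicate 1 and 2323 and 2296 ppm in the others. Gas1, a membrane protein that binds Hedgehog ligands, had 3825, 3709 and 3667 ppm, but this level rests on a transcript of 1155 nt and fell to 1584 ppm with the longest annotated transcript of 2961 nt. The remaining genes among the 25 were S100a4, Fth1, Cd63, Ppia, Lgals1, Gapdh, Laptm4a, Psap, Myl6 and Hsp90ab1, with means from 2391 to 3571 ppm. They cover calcium binding, iron storage, lysosomal and endosomal membranes, protein folding, glycolysis and the non-muscle myosin light chain.

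Promoter sequences from RefSeq (build GRCm38.p6, not the authors' mm9) were set beside the levels, for the 13086 genes of the table with exactly 1 window of 250 bases before to 50 bases after the annotated start. CpG observed over expected counts CG letter pairs against the number that the C and G content would give, and a window at 0.6 or more was called CpG-rich. The share of CpG-rich windows was 10.1% for genes at 0 in all controls, 26.1% above 0 and under 10, 52.5% from 10 to 100, 80.3% from 100 to 1000 and 85.4% from 1000 to 10000. It was lower again, 66.3% of 98 genes, at 10000 and above, beside 50.6% over all 13086. The letters TATAAA were searched on the gene's own strand, lying whole within the stretch from 45 to 15 bases before the start. They were found in 6.94% of windows of genes at 0, 0.675% from 100 to 1000 and 3.06% at 10000 and above, beside 3.19% overall. Anywhere in the window and on either strand they were found in 29.1%, 5.61% and 15.3%, beside 13.7% overall. These are matches of letters, and genes of a family share sequence, so the classes are described and not tested.

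Of these windows, 6 are printed as examples, chosen after their values were seen, and they do not stand for their classes. Every CG pair and any TATAAA in the stretch named above is in capitals. Actg1 (level 42029, chr11:120348446-120348745, minus strand) and Hoxa5 (level 262, chr6:52204538-52204837, minus strand) are CpG-rich and transcribed. Hoxd13 (chr2:74667975-74668274, plus strand) is as dense in CG pairs and was listed at 0 in all 3 controls. Vim (level 115115, chr2:13574061-13574360, plus strand) and S100a4 (level 10255, chr3:90603520-90603819, plus strand) hold TATAAA 32 and 31 bases before the start. Only 3 of 98 genes at 10000 and above held it in that stretch, beside 236 of 3401 genes at 0. No silent gene printed here holds it there, although it was more frequent among genes at 0. Plin1, which encodes the lipid droplet coat perilipin (chr7:79732727-79733026, minus strand), has few CG pairs and was listed at 0.
Actg1: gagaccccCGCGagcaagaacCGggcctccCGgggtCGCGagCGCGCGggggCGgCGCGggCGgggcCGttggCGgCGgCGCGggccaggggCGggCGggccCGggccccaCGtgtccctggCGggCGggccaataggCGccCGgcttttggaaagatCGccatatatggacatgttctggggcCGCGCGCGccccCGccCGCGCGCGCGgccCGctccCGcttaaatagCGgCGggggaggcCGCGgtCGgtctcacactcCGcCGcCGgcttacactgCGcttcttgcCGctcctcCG
Vim: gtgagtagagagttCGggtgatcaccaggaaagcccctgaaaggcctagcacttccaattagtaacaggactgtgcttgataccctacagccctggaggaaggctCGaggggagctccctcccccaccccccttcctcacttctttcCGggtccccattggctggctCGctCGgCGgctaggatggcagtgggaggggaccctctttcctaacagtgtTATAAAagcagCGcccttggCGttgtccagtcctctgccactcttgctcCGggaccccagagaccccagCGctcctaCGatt
S100a4: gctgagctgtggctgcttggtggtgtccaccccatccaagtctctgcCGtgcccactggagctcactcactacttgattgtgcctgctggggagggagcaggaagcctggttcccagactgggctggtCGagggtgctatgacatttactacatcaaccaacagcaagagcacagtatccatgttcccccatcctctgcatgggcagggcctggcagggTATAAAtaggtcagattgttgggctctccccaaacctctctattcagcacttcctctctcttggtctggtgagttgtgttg
Hoxa5: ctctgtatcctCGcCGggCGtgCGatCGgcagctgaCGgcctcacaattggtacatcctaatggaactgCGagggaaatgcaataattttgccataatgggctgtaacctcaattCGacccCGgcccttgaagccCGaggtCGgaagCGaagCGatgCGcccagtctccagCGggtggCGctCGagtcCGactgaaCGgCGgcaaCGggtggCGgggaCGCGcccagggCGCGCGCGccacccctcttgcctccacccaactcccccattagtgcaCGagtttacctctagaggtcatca
Hoxd13: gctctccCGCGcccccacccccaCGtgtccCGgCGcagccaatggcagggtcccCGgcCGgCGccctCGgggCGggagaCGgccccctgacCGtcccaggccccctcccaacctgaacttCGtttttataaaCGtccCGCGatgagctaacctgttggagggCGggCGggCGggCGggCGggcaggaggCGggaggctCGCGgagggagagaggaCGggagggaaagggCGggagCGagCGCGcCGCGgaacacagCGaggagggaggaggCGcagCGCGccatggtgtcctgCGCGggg
Plin1: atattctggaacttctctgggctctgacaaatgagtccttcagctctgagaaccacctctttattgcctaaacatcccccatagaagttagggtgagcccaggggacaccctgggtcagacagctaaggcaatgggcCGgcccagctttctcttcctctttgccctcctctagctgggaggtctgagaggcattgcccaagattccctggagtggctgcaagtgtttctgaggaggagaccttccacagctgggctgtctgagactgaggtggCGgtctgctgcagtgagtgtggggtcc

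The Actg1 window holds 50 CG pairs (observed over expected 1.12), the Hoxa5 window 29 (1.02) and the Hoxd13 window 37 (0.904). Vim has 11 (0.421), S100a4 has 2 (0.0871) and Plin1 has 2 (0.0862). Low CpG density was thus found in windows of genes at both ends of the scale, and high density in an expressed and a silent Hox gene.

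The labelled cell type was checked against 26 genes used as markers of mesenchymal stromal cells. All 26 were in the table, 24 had a level of at least 10, none was at 0 in all controls, and their median stood at the 91.6th percentile of length-scaled level, where the median of all genes is 50. By comparison 58.4% of all genes had a level of at least 10 and 23.2% were at 0 in all controls. The counts of each list below stand beside these shares. Vim, Col1a2, S100a4, Fn1, Col1a1 and Col3a1 led the list, some neighbours overlapping in range. Cxcl12, a chemokine of marrow stroma, had 566, 572 and 539.7 ppm. The PDGF receptor gene Pdgfrb had 242 ± 10.3 ppm and the surface antigen gene Ly6a, which encodes Sca-1, had 169 ± 14 ppm. Not every marker was high. Thy1 had 45.9 ± 4.39 ppm, and the lowest of the list were Ngfr, Nt5e (CD73) and Fap, with mean levels of 0.0863, 4.17 and 11.5. Cxcl12, Pdgfrb, Ly6a and Thy1 lie outside the 6 highest and were picked once their values were known.

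Markers of other cell types had list medians in the lower part of the scale. The median percentile was 23.9 for 16 neuronal, 26.0 for 15 epithelial, 29.0 for 14 endothelial and 24.1 for 13 leukocyte genes. These medians depended on control replicate 1, the deepest library: without it they were 14.1 for the neuronal, epithelial and leukocyte lists and 21.7 for the endothelial list, where 14.1 is the percentile of genes then tied at 0. With all 3 controls it was 11.5 for 12 germ cell and for 14 pluripotency genes, which is the percentile at which all genes listed at 0 are tied. The leukocyte genes Ptprc and Cd3e, the endothelial genes Cdh5, Kdr and Tie1, the neuronal genes Snap25 and Syt1 and the pluripotency genes Pou5f1, Zfp42 and Dppa4 were listed at 0 in all 3 controls. The highest epithelial genes, Trp63 and the epithelial cadherin gene Cdh1, had mean levels of 23.8 and 20.2. The tight junction genes Cldn3, Cldn4 and Cldn7 were listed at 0. The summed length-scaled level was 2.33 ± 0.312 ppm for the epithelial list, 12.98 ± 1.49 ppm for the leukocyte list and 40.5 ± 1.27 ppm for the endothelial list, beside 27061 ± 187 ppm for the mesenchymal one.

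A level of at least 10 was reached by 5 of 16 neuronal and 2 of 15 epithelial genes, beside 58.4% of all genes. It was reached by 4 of 14 endothelial, 3 of 13 leukocyte, 2 of 12 germ cell and 1 of 14 pluripotency genes. A few members stood apart from their lists. Klf4, a zinc finger factor known from reprogramming and also found in differentiated cells, had levels of 1501, 1999 and 1837 and made up nearly all of the pluripotency sum. Erg, an ETS factor of endothelium and cartilage, had levels of 301, 306 and 326. The endothelial list also held Flt1, Tek and Egfl7 at mean levels of 174, 94.6 and 56.1. Stmn2, a microtubule regulator of neurons, had 291, 228 and 201, and Ncam1, a cell adhesion molecule, had 303, 383 and 338. The neuronal list also held Tubb3 at a mean level of 71.1. Cd14, the lipopolysaccharide co-receptor of macrophages, had 96.8, 95.2 and 76.8. Each of these was above the floor in all 3 libraries. In bulk RNA a low level in every cell and a higher level in a few cells cannot be told apart.

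**Figure D2:**
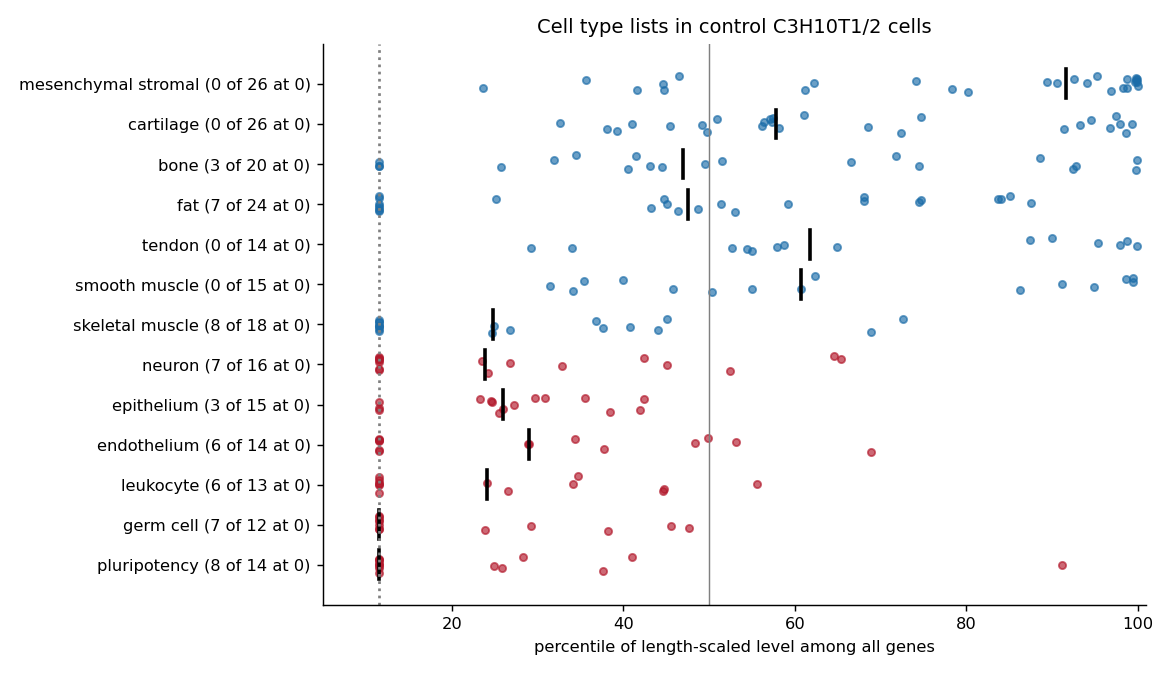
Percentile of the mean length-scaled level for each gene (points) of the mesenchymal stromal and lineage lists (blue) and of lists for other cell types (red), with the list median as a black bar. The dotted line marks the percentile of all genes listed at 0 (11.5), and only the mesenchymal median (91.6) lies above 90.

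Cartilage genes were detected as a set. All 26 were in the table, 23 had a level of at least 10 and none was at 0, with a median percentile of 57.8. Sox9, the transcription factor that starts cartilage formation, had 310, 271 and 264 ppm (282 ± 24.7). Col2a1, the main cartilage collagen, had 909, 989 and 983 ppm (960.3 ± 44.8), placing it 141st of all genes. Lect1 (chondromodulin) followed at 517 ± 8.86 ppm, Col11a1 at 332 ± 20.6 ppm, the secreted protein gene Cytl1 at 231 ± 24.7 ppm and Col9a1 at 154 ± 17.8 ppm. Between these 6 genes no neighbours in the order overlapped. Of the 26 genes, 8 stood in the highest 10% of all genes, among them Matn4 (128 ± 12.8 ppm) and Col9a3 (105 ± 2.41 ppm). Several other cartilage genes were low. Matn4, Col9a3, Acan, Sox6 and Col10a1 are named here after their values were seen. Acan, the aggrecan core protein, had 4.58 ± 0.236 ppm, so Col2a1 stood 210.4 ± 19.3 times higher per length. Sox6, a partner of Sox9, had 10.1 ppm, and Col10a1, a product of hypertrophic chondrocytes, had 10.9 ± 2.45 ppm. The lowest were Ihh, Chad and Matn1, with mean levels of 1.21, 3.08 and 4.77.

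Bone genes as a list stood close to all genes. Of 20 genes, 12 (60%) had a level of at least 10, beside 58.4% of all genes. At 0 were 3, beside 23.2% of all genes, and the median percentile was 47.0. Sparc (3141 ± 56.7 ppm) and Col1a1 (2736 ± 284 ppm) are made by many stromal cells. The more specific genes that led after them were Ank, a pyrophosphate transporter (123 ± 1.05 ppm), Tnfrsf11b, the RANK ligand decoy osteoprotegerin (117 ± 13.6 ppm), and Spp1 (osteopontin, 81.7 ± 6.57 ppm). Ank and Tnfrsf11b overlapped in range. Runx2, the factor that starts bone formation, was steady at 33.6, 33.2 and 33.1 ppm. Alkaline phosphatase (Alpl) and the later factor Sp7 had mean levels of 1.01 and 2.39, named after their values were seen, and Ibsp, Sost and Mepe were listed at 0.

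Fat regulators were detected, and several late fat genes were listed at 0. Of 24 genes, 15 (62.5%) had a level of at least 10, near the 58.4% of all genes. At 0 were 7, where 23.2% of all genes were at 0. The median percentile was 47.5, and none stood in the highest 10% of genes. The highest members were mostly regulators: Ebf1 had 75.6 ± 3.59 ppm, Pparg 59.6, 65.7 and 62.9 ppm, Cebpb 58.6 ± 2.65 ppm, Cebpa 33.8 ± 3.49 ppm and Cebpd 33.2 ± 2.43 ppm. Dgat2, which makes triglyceride, had 57.1 ± 3.98 ppm. Pparg, Cebpb and Dgat2 overlapped along the order, as did Cebpa and Cebpd. The mature fat cell genes Plin1, Lep, Cd36 and Retn were listed at 0 in all 3 controls. Fabp4 and Adipoq, named after their values were seen, had mean levels of 30.1 and 8.39. Role did not set the whole order, as the lipase genes Pnpla2 (23.5 ppm) and Lipe (13.1 ppm) stood above the regulator genes Zfp423 (7.11 ppm), Gata3 (1.74 ppm) and Ebf2 (1.62 ppm), also picked with values known.

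The tendon list had 12 of 14 genes at a level of at least 10 and a median percentile of 61.8. Bgn led it, followed by Aspn (555 ± 48.9 ppm), Col5a1 (326 ± 15.4 ppm), Tnc (176 ± 6.67 ppm) and Tnmd (92.0 ± 11.9 ppm), a membrane protein of tendon cells. Scx, the tendon transcription factor, varied more, with levels of 82.9, 148 and 121. Related small proteoglycans differed widely, since Dcn (decorin) had 12.5 ± 2.96 ppm and Lum (lumican) 8.84 ± 2.64 ppm. Bgn therefore stood 379.7 ± 69.9 times above Dcn.

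Smooth muscle genes, 11 of 15 of which had a level of at least 10, had a median percentile of 60.7. Tpm1 (1243 ± 41.6 ppm) and Acta2 (1093, 1286 and 1282 ppm), the tropomyosin and actin of stress fibres, overlapped at the top, and Cald1 followed at 516 ± 11.5 ppm. The lowest were Myocd, Cnn1 and Myh11, the master co-activator and late contractile products, with mean levels of 1.77, 1.77 and 6.28. Skeletal muscle genes were mostly under a level of 10. Only 4 of 18 had a level of at least 10, 8 were at 0 and the median percentile was 24.8. Pax7, Myf6, Myog and Ckm were listed at 0, and Myod1, the myogenic switch gene, was at 0 in 2 of 3 controls with a mean of 0.0863, and was picked with its value known. Tnni1, a slow troponin, had levels of 154, 103 and 138, and Mef2c 30.1 ± 1.7 ppm.

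Matrix genes were a large share of this transcriptome. The 170 listed genes held 8.66%, 8.89% and 8.76% of the deposited level (8.77% ± 0.112) and 4.75% ± 0.0715 of the length-scaled level. Fibrillar collagens had the highest median percentile of the matrix lists, 97.9, with 10 of 11 genes at a level of at least 10. Col1a2 had 3769.6, 4011 and 3877 ppm and Col1a1 had 2414, 2947 and 2848 ppm. Type I collagen protein holds more Col1a1 than Col1a2 chains, while the transcript ratio of Col1a2 to Col1a1 was 1.56, 1.36 and 1.36. Col1a1 overlapped Col3a1 (2429, 2241 and 2184 ppm), and their order was reversed in control replicate 1. Col2a1, Col5a2 (463 ± 6.63 ppm) and Col11a1 followed, and Col24a1 was listed at 0.

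Among 28 other collagen genes, 21 had a level of at least 10. Col6a1 had 1099, 1065 and 1025 ppm and Col6a2 had 532, 532 and 525 ppm, a ratio of 2.01 ± 0.057. The basement membrane pair Col4a1 (357 ± 28.4 ppm) and Col4a2 (272 ± 19.3 ppm) stood at a ratio of 1.31 ± 0.0154, with both lower in control replicate 1. Col12a1 and Col16a1 had 166 ± 12.8 and 165 ± 16.1 ppm and could not be ordered beyond their spread. The lowest were Col25a1, Col13a1 and Col22a1, at mean levels of 0.0863, 0.0863 and 1.03.

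**Figure D3:**
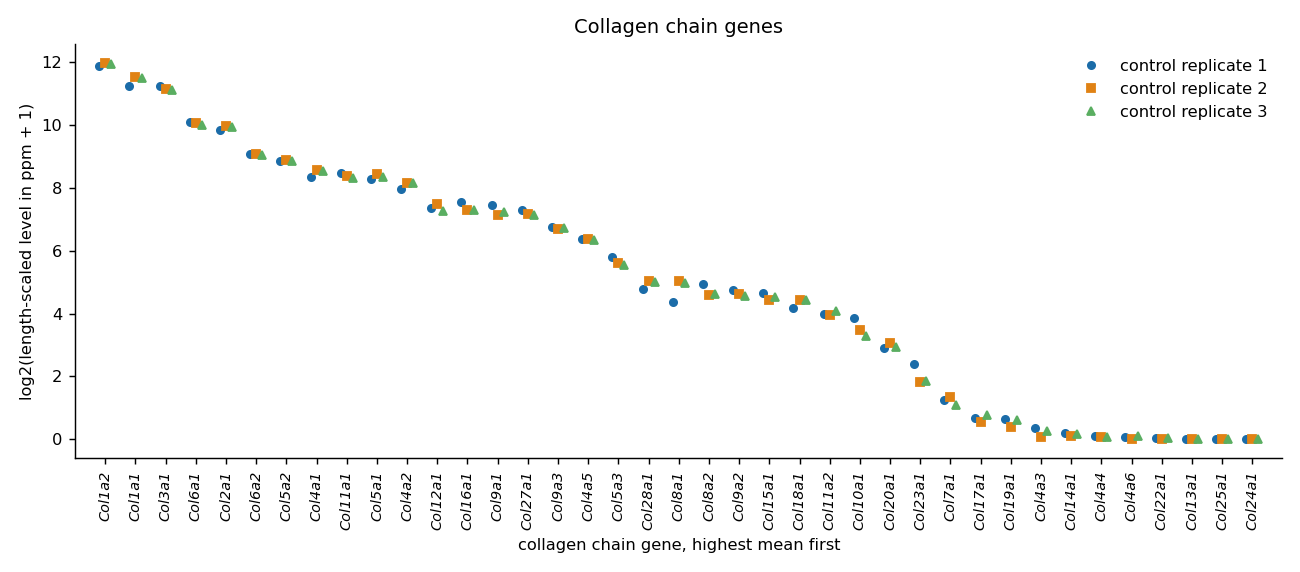
Length-scaled level of each collagen chain gene in each control, as log2(ppm + 1), ordered by the mean. Col1a2, Col1a1 and Col3a1 lie above 11, a long middle group follows, and control replicate 1 lies below the others for Col1a1, Col4a1, Col4a2 and Col8a1 among others.

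Of 54 matrix glycoprotein genes, 48 had a level of at least 10 and Vtn was listed at 0. Sparc and Fn1 led and overlapped in range. Postn (periostin, 921 ± 88.9 ppm) and Nov, a CCN family protein (856 ± 31.1 ppm), overlapped too. The elastic fibre and basement membrane proteins Fbln2 and Nid2 followed at 499.8 ± 16 and 476 ± 25.7 ppm, overlapping as well. Of 29 proteoglycan genes, 25 had a level of at least 10. Bgn stood far above Ogn (642 ± 66.6 ppm), Aspn and Vcan (468 ± 58.9 ppm), which overlapped in order. The glypican Gpc1 (279 ± 19.3 ppm) and perlecan, Hspg2 (232 ± 15.8 ppm), came next, and Kera, Bcan and Ncan were lowest with mean levels of 0.432, 1.72 and 4.33.

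The machinery that finishes collagen was present as a whole. All 22 listed enzymes and chaperones had a level of at least 10, with a median percentile of 94.4. Serpinh1, the collagen chaperone, had 1769 ± 30.7 ppm, Lox, which cross-links collagen, 1312 ± 39.6 ppm, and Pcolce, which aids removal of the C-terminal propeptide, 1130 ± 83.4 ppm. P4hb (917 ± 33.7 ppm), Loxl1 (340.2 ± 4.69 ppm) and Bmp1, the C-propeptidase (227 ± 8.07 ppm), completed the leading 6. Among matrix proteases and their inhibitors, 19 of 26 had a level of at least 10. The inhibitors Timp2 (1462 ± 76.5 ppm) and Timp3 (1232 ± 156 ppm) were above the proteases Mmp14 (881 ± 21.8 ppm) and Mmp2 (687 ± 67.1 ppm), and the ranges of Timp2 and Timp3 overlapped. Mmp3 and Mmp13 were listed at 0. Secretory pathway genes had a median percentile of 97.3, with 22 of 27 in the highest 10% of genes. The chaperone genes Calr (1411 ± 56.5 ppm) and Hsp90b1 (957 ± 85.2 ppm) and the lysosomal protease gene Ctsd (1283 ± 47.1 ppm) led them.

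Of 26 integrin genes, 17 had a level of at least 10, a share of 65.4% beside 58.4% of all genes. The order was Itgb1 (561, 538 and 522 ppm), Itga5 (160.1, 161 and 166 ppm), Itgb5 (157 ± 4.77 ppm), Itgav (79.7 ± 2.85 ppm), Itgb3 (46.2 ± 2.67 ppm) and Itga6 (42.3 ± 2.18 ppm). Itga5 with Itgb1 forms the fibronectin receptor, and the beta chain, which pairs with many alpha chains, stood 3.33 ± 0.177 times above Itga5. Itga5 and Itgb5 overlapped, as did Itgb3 and Itga6, and the leukocyte integrin Itgax was listed at 0. Among 11 cadherins, the mesenchymal Cdh11 (249.8 ± 6.56 ppm) and Cdh2 (195 ± 2.41 ppm) led without overlap. Cdh13 and Cdh10 followed at 18.2 and 17.3 ppm, overlapping, and Cdh5, Cdh8 and Cdh15 were listed at 0.

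Receptor genes of the growth factor families stood above the ligand genes of the same families, on the summed length-scaled level, in the PDGF, FGF, EGF and Wnt systems. For PDGF the sums were 505 ± 11.3 ppm for 3 receptor genes and 35.0 ± 2.76 ppm for 4 ligand genes. Pdgfrb had 232, 252 and 241 ppm and Pdgfra 135, 110.4 and 113 ppm, so Pdgfrb stood 2.05 ± 0.294 times above Pdgfra. Pdgfrl, a receptor-like protein without a kinase, had 144 ± 5.1 ppm, and Pdgfa led the ligands at 15.9 ± 1.2 ppm. For FGF the sums were 754 ± 31.4 ppm for 5 receptor genes and 95.6 ± 7.25 ppm for 22 ligand genes. Fgfrl1, which lacks the kinase domain (316 ± 13.8 ppm), and Fgfr1 (297 ± 9.51 ppm) overlapped, Fgfr2 had 107 ± 5.92 ppm and Fgfr3 33.7 ± 3.75 ppm, and Fgfr4 was near the floor with a mean level of 1.47. Fgf7 (80.3 ± 6.41 ppm) and Fgf10 (8.41 ± 1.04 ppm), which signal to the epithelial form of Fgfr2, led the ligands. Fgf3, Fgf4, Fgf5 and Fgf6 were listed at 0.

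The EGF family was lower, with sums of 64.5 ± 5.68 ppm for 4 receptor genes and 20.7 ± 0.944 ppm for 11 ligand genes. Erbb2 (38.9 ± 2.2 ppm) and Egfr (21.8 ± 3.21 ppm) led, and Erbb4 was listed at 0. The Wnt system had receptors in number, with 16 of 18 genes at a level of at least 10 and a sum of 1032 ± 33.4 ppm. Lgr4, a receptor for R-spondins, had 189.5 ± 14 ppm, and the Frizzled genes Fzd2 and Fzd1 had 150.2 ± 2.04 and 136 ± 10.6 ppm. The co-receptor genes Lrp5 and Lrp6 had 117 ± 4.05 and 96.1 ± 6.66 ppm. Only 4 of 19 Wnt ligand genes had a level of at least 10. Wnt5b had 53.9, 40.3 and 39.3 ppm and Wnt5a 10.5, 8.07 and 8.08 ppm, both highest in control replicate 1, and their ratio was 4.99 ± 0.127. Wnt3, Wnt3a, Wnt4 and Wnt7a were listed at 0. Secreted Wnt antagonists summed to 404 ± 25.8 ppm, led by Sfrp2 (181 ± 21 ppm), Sfrp1 (136 ± 1.93 ppm) and Frzb (81.3 ± 2.58 ppm), with Dkk1, Dkk4 and Sost at 0.

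In the TGF-beta and BMP family the sums were 364 ± 7.27 ppm for 14 receptor genes and 512 ± 3.01 ppm for 33 listed ligand genes. Bmp1, which the family name covers but which is a protease, made up 227 ± 8.07 ppm of the ligand sum. Without it the other 32 ligand genes summed to 284 ± 6.08 ppm, below the receptors in all 3 controls, so the order of the sums depended on that gene. Tgfbr2 (138 ± 5 ppm), Bmpr1a (58.0 ± 3.81 ppm), Tgfbr1 (41.8 ± 1.57 ppm) and Acvr1 (39.9 ± 1.26 ppm) led the receptors, the last pair overlapping. Tgfb2 (84.7 ± 2.73 ppm), Bmp4 (63.8 ± 4.24 ppm) and Tgfb3 (56.4 ± 1.78 ppm) led the ligands without overlap, while Bmp2, Bmp7, Bmp10 and Gdf2 were listed at 0. Among the 14 antagonists, Fstl1 had 2581, 2401 and 2358 ppm and Twsg1 127 ± 6.04 ppm. The classical antagonist genes Chrd and Nog had mean levels of 196 and 1.25.

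**Figure D4:**
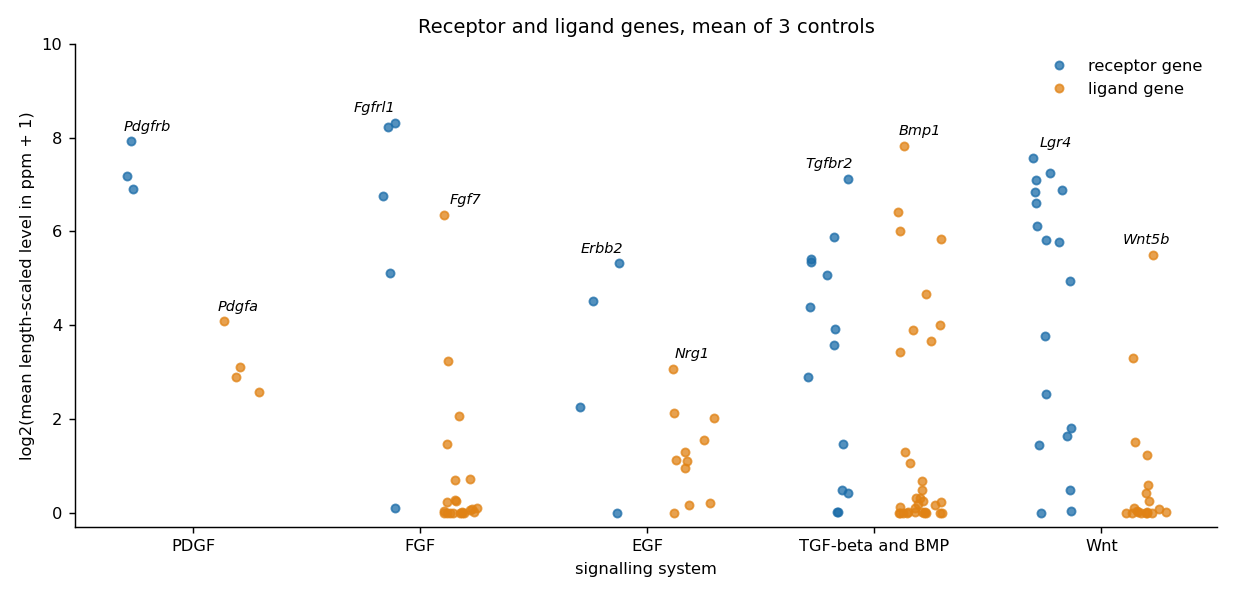
Mean length-scaled level over the 3 controls, as log2(ppm + 1), for receptor genes (blue) and ligand genes (orange) of the PDGF, FGF, EGF, TGF-beta and BMP, and Wnt families, each point 1 gene and the highest of each group named. Ligand genes crowd at 0 in the FGF, TGF-beta and BMP, and Wnt families, and Bmp1, plotted with the ligands, is a protease.

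Hedgehog reception genes were detected, and ligand genes were at or near 0. Smo, the signal transducer, had 164 ± 8.17 ppm and the co-receptor genes Gas1, Boc and Cdon had 3734, 138 and 28.7 ppm. Shh was listed at 0, and Ihh and Dhh had mean levels of 1.21 and 0.0863. The target genes Ptch1 and Gli1 had mean levels of 451 and 64.4, and the target Hhip was listed at 0. In the Notch list, Notch1 (75.6 ± 3.31 ppm) and Notch2 (51.9 ± 2.72 ppm) led, Jag1 (25.6 ± 1.12 ppm) was the highest ligand, and Dll1, Dll3 and Dll4 had mean levels from 0.835 to 8.08. With the length used here the IGF system was led by the ligand Igf1 at 1255, 1096 and 1108 ppm, while Igf2 had 1.83, 1.47 and 1.16 ppm. The ratio of Igf1 to Igf2 was 795 ± 142. With the longest annotated transcript Igf1 had 247 ± 19 ppm, below Igfbp7 (350.4 ± 24.6 ppm), and the ratio was 193 ± 34.4. With the length used here Igfbp7 (334 ± 23.4 ppm) was the highest binding protein, and Igf2r and Igf1r had 184 ± 5.75 and 32.3 ± 0.692 ppm. In the VEGF system Vegfb and Figf (VEGF-D) overlapped at 154 ± 0.381 and 151 ± 6.78 ppm, Nrp1 had 92.0 ± 5.9 ppm, and Kdr, the main endothelial receptor, was at 0.

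In the Eph, nuclear and G-protein coupled receptor lists the share of genes at a level of at least 10 was at most 55.3%, beside 58.4% of all genes. Of 14 Eph receptor genes, 7 had such a level, with Ephb4 (94.7 ± 4.32 ppm) and Ephb3 (90.7 ± 4.49 ppm) overlapping in the lead. Of 47 nuclear receptor genes, 26 had a level of at least 10 and 10 were at 0. The retinoic acid receptor Rarg (216 ± 3.56 ppm), the thyroid hormone receptor Thra (156 ± 2.02 ppm) and the shared partner Rxra (136 ± 0.702 ppm) led in an order without overlap, and Pgr, Rxrg, Nr1h4 and Nr1i2 were listed at 0. Of 46 G-protein coupled receptor genes, 23 had a level of at least 10. They were led by Gpr124 (155 ± 3.78 ppm), the thrombin receptor F2r (56.4 ± 1.67 ppm) and the lysophosphatidic acid receptor Lpar1 (41.3 ± 2.4 ppm).

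Among 105 developmental transcription factor genes, 68 had a level of at least 10, 14 were at 0 and the median percentile was 52.8, close to the 50 of all genes. Prrx1, a homeobox factor of limb and face mesenchyme, had 382, 412 and 394 ppm and overlapped with Nfix (390.0 ± 11.3 ppm). Sox9 followed below them, and Nfic (186 ± 10.2 ppm) overlapped with Sox4 (176 ± 9.56 ppm). Lhx8, Pax2, Pax7 and En2 were listed at 0.

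Hox genes were used from 1 cluster. Of 39 Hox genes, 8 had a level of at least 10, and all 8 were in the HoxA cluster. Per length the order was Hoxa2 (65.1, 54.1 and 63.0 ppm), Hoxa3 (39.9 ± 2.09 ppm), Hoxa7 (30.1 ± 1.61 ppm), Hoxa5 (24.2 ± 1.82 ppm), Hoxa4 (21.1 ± 1.13 ppm) and Hoxa10 (13.3 ± 1.38 ppm), without overlap between neighbours. Hoxa6 had a mean level of 49.4, and Hoxa9 fell short of 10 with 9.62, both picked with their values known. The order along the chromosome was not kept, since Hoxa10 stood above Hoxa9, whose mean was 0.519 ppm. Hoxa11 and Hoxa13, at the posterior end, were listed at 0, as were Hoxb1 and Hoxb2 and all 9 HoxD genes. The highest Hox gene outside HoxA was Hoxb4, at a mean level of 2.84, named after its values were seen. For the 20 Hox genes listed at 0, a count of 0 allows a level of up to 0.777 in the deepest library.

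Polycomb genes were all present, since 31 of 31 had a level of at least 10, with a median percentile of 72.5. Ring1 and Rnf2, which encode Ring1a and Ring1b, the ubiquitin ligases of Polycomb repressive complex 1, had levels of 336, 386 and 374 and of 815, 829 and 799. Per length Rnf2 stood 1.44 ± 0.107 times above Ring1, and was above it in all 3 controls. The histone-binding subunits Rbbp4 (190.5 ± 12.6 ppm) and Rbbp7 (190 ± 2.41 ppm) and the chromodomain protein Cbx6 (181 ± 12.8 ppm) overlapped at the top. Ezh2 stood at 0.693 ± 0.096 of Ezh1, the other catalytic subunit of Polycomb repressive complex 2, a pair picked with its values known. Of 22 imprinted genes in the table, 16 had a level of at least 10, led by Gnas (852 ± 17.7 ppm), Mest (491, 401 and 416 ppm) and Grb10 (421 ± 24.3 ppm). Mest and Grb10 overlapped in range, and Magel2 was listed at 0.

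Cell cycle genes were all detected, with 39 of 39 at a level of at least 10 and a median percentile of 76.0. Cdk4 (746 ± 15.3 ppm), the inhibitor Cdkn1a (288 ± 8.12 ppm), Pcna (165 ± 11.4 ppm) and Ccnd1 (149.9 ± 5.83 ppm) led the list without overlap. Ccnd3, another D cyclin, and the inhibitor Cdkn1b followed at 109 ± 8.12 and 103 ± 0.883 ppm, overlapping. Control replicate 1 was the highest library for 30 of the 38 cell cycle genes with a mean of at least 100, and lowest for 5. Among all 9794 genes with such a mean it was the highest library for 3268 (33.4%).

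Genes at 0 were concentrated in families of specialised tissues. Of 1119 olfactory receptor genes (Olfr), 1064 were listed at 0, and of 328 vomeronasal receptor genes (Vmn), 296 were. Together these made up 28.8% of the 4715 genes at 0. All 14 alpha-defensin genes (Defa), 17 late cornified envelope genes (Lce), 19 major urinary protein genes (Mup) and 15 trace amine receptor genes (Taar) were at 0, as were 50 of 51 hair keratin-associated protein genes (Krtap). Keratins were at 0 in 32 of 51 and cytochrome P450 genes (Cyp) in 59 of 99. These families are full of near-identical copies, so estimated reads can be split or lost among them. A level of at least 10 was reached by 2 Olfr and 3 Vmn genes, beside 4 keratin and 16 Cyp genes. The highest of the olfactory and vomeronasal genes were Vmn1r58, at 674, 608 and 679, and Olfr613, at 599, 608 and 597. Both were named after their values were seen.

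The controls were compared with each other because a mean hides a library that stands apart. Of 9794 genes with a mean of at least 100, 25 (0.255%) were at least 1.5-fold lower in control replicate 1 than in both others and 9 (0.0919%) at least 1.5-fold higher. The corresponding numbers were 13 (0.133%) lower and 3 (0.0306%) higher for control replicate 2, and 4 (0.0408%) lower and 2 (0.0204%) higher for control replicate 3. Of the 5650 genes whose mean was 500 or more, the 10 with the largest coefficient of variation all had control replicate 1 lowest. Over the wider set of 9794 genes with a mean of at least 100, it was lowest in 3231. Cyr61, a CCN family matrix protein, had levels of 1592, 3708 and 3780.3. Egr1, an immediate early factor, had 793, 1555 and 1589, and Nr4a1, an immediate early nuclear receptor, 360.5, 694 and 766. Trib3, a stress response gene, had 407, 734 and 813, and Slc7a5, an amino acid transporter, 1104, 1917 and 1858. Ier2, Cdsn, Vldlr, Ctgf and Col8a1 made up the 10, with coefficients of variation from 26.2% to 31.2%. In each of the 10 genes the levels in control replicates 2 and 3 were close and replicate 1 lay apart. Control replicate 1 was also the deepest library and had the lowest ribosomal protein share (5.28%, beside 5.69% and 5.96%), and the part of depth or of that share in these differences was not tested.

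**Figure D5:**
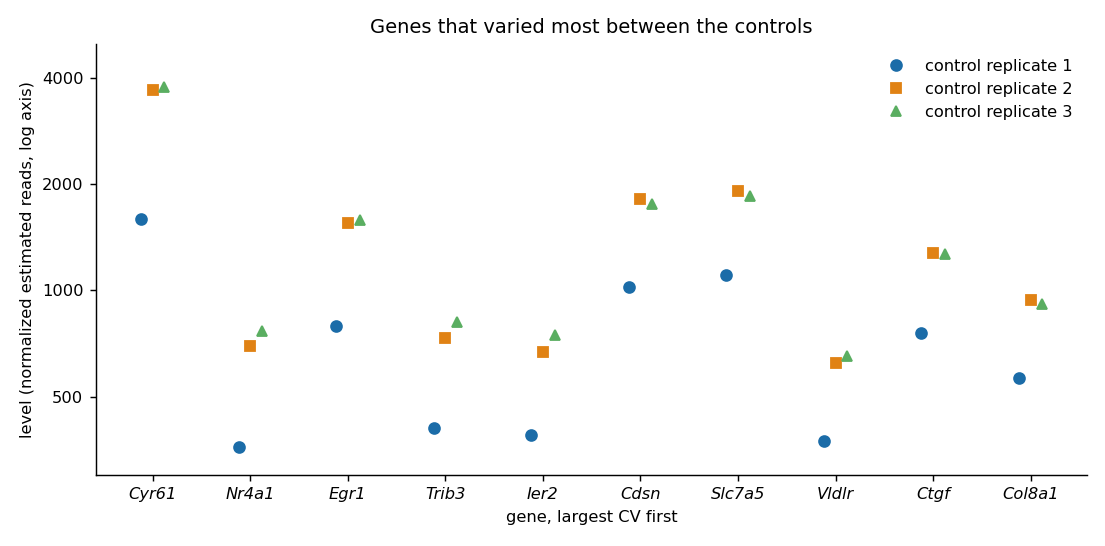
Level of the 10 genes with the largest coefficient of variation, of those whose mean was 500 or more, in each control (log axis). In all 10 control replicate 1 (blue circles) lies below control replicates 2 and 3, for example 1592 against 3708 and 3780.3 for Cyr61.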

How the data were processed

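RNA of 3 control samples was measured by sequencing. The submitters' processing notes name the tools Bowtie 1.0.0 and RSEM 1.2.12 and the build mm9. Annotation and strand: not given in the sources used here. Overlapping, antisense and near-identical genes are therefore uncertain. The authors deposited a normalized signal per gene and library, namely estimated reads scaled by library (median normalization, from the table's name). Whole multiples of the value of 1 read, within 0.1 read, made up 88.3% to 90.2% of the values up to 20 reads, so counts were not recovered.

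Everything else was computed from these values with Python 3.11.15, pandas 2.3.3 and numpy 2.4.6. Length was the median of the RefSeq-linked coding transcripts of a symbol in GENCODE M21, a newer build, used for lengths alone. The length planned first, the median of all coding transcripts, took fragments (737 nt for Col3a1, against 5564), so the length was changed after the data were seen. A gene's percentile is the rank of its mean length-scaled level among 20070 genes. With 1 group there was no test between groups: values are descriptions, and neighbours whose ranges over the 3 controls overlap are said to overlap. The code was checked on simulated data.

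The 47 gene lists were chosen with earlier results of these data known. Genes named are the 25 highest per length other than ribosomal protein, mitochondrially encoded and predicted genes; per list up to 6 highest, 3 lowest or 4 at 0, with lists of up to 14 named freely; the 10 most variable; and Ring1 and Rnf2. Any other named gene is marked as such, and a few single genes are not reported here. Alternatives covered scaling, each control left out, length, averaging, and the filter on low levels.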

Additional observations from a re-analysis of the deposited data

How the results depend on the processing

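No paired analysis was possible because 1 group was described and no test was run. The number of genes at a level of at least 10 (11831 to 11881 with 1 control left out), the number at 0 (4771 to 5781), the share of the deposited level in the 100 highest genes and the matrix share stayed within 1.5 times or 1 SD of the reported value under every alternative run. The length-scaled share of the 100 highest genes was 26.3% with the length planned first and 28.2% to 29.2% under the others run, a check added after the data were seen. List medians moved more. With the length planned first they were 90.9 (mesenchymal), 59.9 (cartilage), 47.1 (fat) and 65.1 (smooth muscle), and with the longest transcript 58.8 (cartilage), 47.3 (fat) and 61.9 (smooth muscle). Without length they were 87.9 (mesenchymal), 65.2 (cartilage), 51.2 (bone), 46.6 (fat), 57.0 (tendon) and 58.3 (smooth muscle). Among genes at a level of at least 10 alone, where members under 10 are dropped, they were 88.6, 33.5, 54.2, 45.5, 59.4 and 76.6 in that order, so cartilage members lie mostly below the median of expressed genes. With 1 control left out, skeletal muscle ran from 14.1 (without control replicate 1, the deepest) to 26.4 and bone from 46.5 to 47.4. The mesenchymal median stayed the highest of the 7 lists throughout. Of 255 named genes, 38 moved by over 1.5 times with the length planned first and 17 with the longest transcript, among them Igf1, Gas1, Nfix, Myl6, Vcan, Rxra and Actg1. By 1 SD over the controls or more, 239 moved with the length planned first and 169 with the longest transcript. The SDs therefore do not cover the choice of length, and orders without overlap are for the length used here. Low levels are limited by control replicate 2, where 3 reads are a level of 7.52.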

Other observations

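Some genes outside the lists stood high in these cells; they were picked once their values were known. Il1rn, the secreted antagonist of the interleukin-1 receptor, had levels of 10263, 10105 and 10096 and a length-scaled level of 886.5 ± 24 ppm, placing it 155th of all genes. Rspo2, a secreted protein that strengthens Wnt signals through Lgr receptors, had 567, 549.5 and 544 ppm, beside 189.5 ± 14 ppm for Lgr4 and mean levels of 11.0 and 0.775 for Lgr5 and Lgr6. Serpinf1, a secreted serpin, had 969 ± 24.1 ppm, Cpe, a carboxypeptidase of hormone processing, 855 ± 60.8 ppm, and Aqp1, a water channel, 415 ± 23 ppm. Penk, the precursor of enkephalins, had levels of 3260, 2338 and 2416, and Apod, a lipocalin, 632, 451 and 460.2. As with Ptn, the level of Penk and of Apod was highest in control replicate 1. Cdsn, an adhesion protein of the epidermis, had levels of 1021, 1819 and 1764, while the epithelial list summed to 2.33 ± 0.312 ppm.

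Genes on the sex chromosomes were read as a check on the line, whose sex the labels do not give. Eif2s3y, Kdm5d, Usp9y, Sry, Zfy1 and Zfy2, all Y-linked, were listed at 0 in all 3 controls, and Ddx3y and Uty had mean levels of 1.78 and 0.173. The X-linked partners Ddx3x and Eif2s3x had 237 ± 12.6 and 218 ± 7.61 ppm. Between control replicates 2 and 3 the log2 difference in level rose with transcript length (Spearman's rho 0.281 across 9714 genes), while between control replicate 1 and the mean of the others rho was −0.021. These correlations are across genes, which share their library and are not independent.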
